A study of Mus musculus with 28 samples.

Results

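Interferon-high marrow stromal cells were a small set of CXCL12-producing cells of mouse bone and bone marrow that carried many transcripts of interferon-stimulated genes. They were selected on measured counts. In the 4 single-cell RNA libraries, a cell with 200 or more detected genes was called stromal when Adipoq, Cxcl12, Lepr, Lpl, Hp, Kng1 and Esm1 together gave at least 1% of its unique molecular identifiers (UMIs, one per captured transcript). A stromal cell was called interferon-high when Cxcl9, Cxcl10, Ifit1, Ifit3, Ifit3b, Gbp2, Igtp, Iigp1 and Isg15 together gave at least 4 UMIs. By these rules 203 of 5003 stromal cells were interferon-high, out of 6205 cells with 200 or more genes and 6245 deposited cell barcodes. The other 4800 stromal cells served as the comparison.

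Interferons are cytokines that signal through cell surface receptors and the JAK-STAT pathway. Type I interferons act through IFNAR1 and IFNAR2 and interferon-gamma acts through IFNGR1 and IFNGR2, and both switch on antiviral enzymes, GTPases that attack intracellular pathogens, chemokines for T cells and the machinery that presents peptides on MHC class I. The marrow stroma described here, known for high Cxcl12 and Lepr, supports blood stem cells and is a source of bone and marrow fat cells.

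The study asked how loss of Zmpste24 (Z24), the protease that matures lamin A, acts in skeletal stem cells, and sorted tdTomato+ cells from bone and bone marrow after gating out blood and endothelial cells with CD45, Ter119 and CD31. One library came from 8-week-old mice carrying Osx-Cre, which is driven by a promoter of osteoblast precursors. One came from 8-week-old mice carrying Prx1-Cre, which is active in limb mesenchyme. Both are labelled Z24fl/fl, whereas the methods of the study describe these mice by their Cre and reporter alone. The other 2 libraries came from 16-week-old Prx1-Cre mice, a control (PrxCre; Z24fl/+) and a conditional knockout (CKO, PrxCre; Z24fl/fl), so the control also carried Cre and 1 floxed allele. The methods of the study list the cell numbers of the 16-week genotypes the other way round from these labels. The library labelled control held 2068 filtered cells and the one labelled CKO 2362, and control and CKO are used here as labelled. The 16-week libraries pooled several mice and no cell was assigned to a mouse. Each group was therefore 1 library, and no difference between libraries could be tested: Cre line, age, genotype, mice and library cannot be told apart where they differ together.

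Zmpste24 transcripts were scarce. In the other stromal cells its level was 41.1 CPM (UMIs of a gene per 1000000 UMIs of the summed cells) in the Osx-Cre library, 19.0 in the Prx1-Cre library, 20.7 in the control and 3.65 in the CKO. In the interferon-high cells there were 0, 1, 4 and 0 UMIs of Zmpste24 in the same order. The level was thus lower in the library labelled CKO than in the one labelled control, and not low in the 8-week libraries labelled Z24fl/fl. The libraries count 3′ ends, and whether deletion of an internal exon lowers that count was not tested. The study reports lower percentages of chondrocyte-like and periosteal stromal cells in the knockout. Cells that missed the stromal rule were 315 of 2068 in the library labelled control and 240 of 2362 in the one labelled CKO. In them the 9 chondrocyte markers summed to 13918 and 8871 CPM and the 9 periosteal markers to 9304 and 5366 CPM. These are marker levels over all cells that missed the rule, a different measure from the study's percentages of cells. Whether the labels were exchanged was not tested.

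The stromal label held in genes that the rule did not use. The summed level of 25 marrow niche genes, among them Kitl, Ebf1, Ebf3, Foxc1 and Pdgfra, was 17522, 21024, 19723 and 20741 CPM in the interferon-high cells of the Osx-Cre, Prx1-Cre, control and CKO libraries. It was 20349, 19952, 21958 and 20351 CPM in the other stromal cells, against 1220, 1193, 2133 and 3194 CPM in cells outside the stromal list. The niche genes were thus far above the cells outside the list in both classes. Ptprc, which encodes the pan-leukocyte marker CD45, and the endothelial cadherin gene Cdh5 had 0 UMIs in the 203 cells, where 3 UMIs would have been 110.9, 147.4, 11.1 and 39.8 CPM in the 4 libraries. The summed list of 10 endothelial genes was at 37.0, 0, 47.9 and 39.8 CPM in the interferon-high cells, with 9, 10, 5 and 8 genes at 0 and Pecam1 the most abundant where any was seen, and at 142, 124, 42.7 and 35.8 CPM in the other stromal cells. All 14 lymphoid and plasmacytoid dendritic cell markers, including Cd3e and Siglech, were also at 0 in each library. Of the 16 myeloid markers, 14, 14, 7 and 11 were at 0, and Fcer1g was the most abundant in each library.

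The cells were deeper than their neighbours, as a rule that asks for a number of UMIs favours. The median was 1113 UMIs per interferon-high cell against 836.5 per other stromal cell in the Osx-Cre library, and 1050 against 895 in the Prx1-Cre library. It was 2241.5 against 1353 in the control and 2018.5 against 1252 in the CKO. Summed over cells, the interferon-high class held 27052, 20358, 271458 and 75357 UMIs, so the 8-week sums were thin. Mitochondrial transcripts took 1.73%, 1.78%, 2.43% and 2.46% of their UMIs, and 1.90%, 2.00%, 2.87% and 2.95% in the other stromal cells. No cell barcode was shared between libraries among the interferon-high cells, and 16 were shared among the stromal cells.

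The share of interferon-high cells was highest in the control library and lowest in the CKO library. It was 24 of 558 stromal cells, 4.30% (exact 95% binomial interval 2.77 to 6.33), in the Osx-Cre library and 19 of 570, 3.33% (2.02 to 5.16), in the Prx1-Cre library. In the control it was 124 of 1753, 7.07% (5.92 to 8.38), and in the CKO 36 of 2122, 1.70% (1.19 to 2.34). The control share was 4.17 times the CKO share, and their intervals did not overlap. These intervals cover counting error alone and say nothing of the spread between mice.

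The order of the libraries was the same within a window of depth and changed on thinning, and without Isg15 the 8-week libraries changed places, at 2.87% for Osx-Cre and 2.98% for Prx1-Cre. Within cells of 1000 to 4000 UMIs the shares were 8.16%, 5.61%, 8.46% and 2.38% in the Osx-Cre, Prx1-Cre, control and CKO libraries. When 318 of 558, 354 of 570, 1429 of 1753 and 1572 of 2122 stromal cells were thinned to 800 UMIs each, leaving out shallower cells, the shares were 4.72% (2.66 to 7.66), 3.39% (1.76 to 5.85), 2.87% (2.07 to 3.87) and 0.763% (0.395 to 1.33). The Osx-Cre library then stood highest, with an interval that overlapped those of the Prx1-Cre and control libraries. The CKO library was the lowest in each of the 9 settings tried, and the control exceeded it by 2.70 to 4.90 times. The summed level of the 9 genes over all stromal cells, which needs no threshold, was 854, 747, 773 and 357 CPM.

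**Figure D1:**
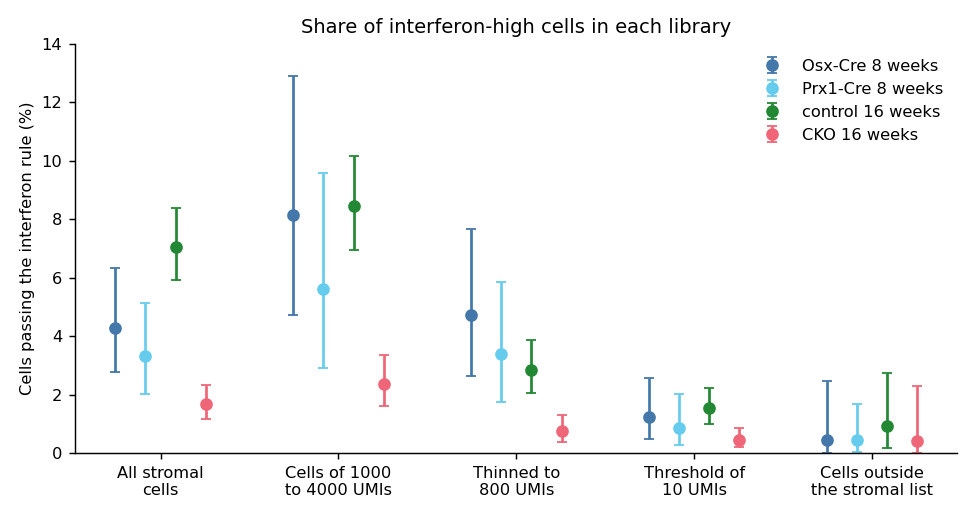
Share of cells (%, y axis) passing the interferon rule in each of the 4 libraries, under the rule as given and 3 alternatives, and among cells outside the stromal list. Points are shares and bars exact 95% binomial intervals; the CKO library has the lowest share in each of the 4 stromal settings shown, from 0.471% to 2.38%.

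Outside the stromal list few cells reached 4 UMIs, although those cells were deeper than the stromal cells in 3 of 4 libraries and about level in the CKO, with medians of 1523.5, 1693, 1793 and 1275.5 UMIs against 853, 902, 1391 and 1271.5. They numbered 1 of 224, 2 of 423, 3 of 315 and 1 of 240 in the Osx-Cre, Prx1-Cre, control and CKO libraries. At least 1 UMI of the 9 genes was seen in 33.3%, 34.6%, 40.5% and 28.2% of stromal cells and in 11.6%, 6.86%, 9.52% and 9.17% of the cells outside. Thinned to 800 UMIs, the stromal shares with at least 1 UMI were 34.3%, 32.8%, 27.4% and 19.3%. The interferon-high cells held 46.5%, 40.9%, 60.8% and 31.3% of the UMIs of the 9 genes found in stromal cells.

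The threshold cut a continuous tail. Over the 4 libraries 127 stromal cells held 3 of these UMIs, just below it, and 54 held exactly 4. The median was 6 in each library. 94 cells held 4 or 5 UMIs, 60 held 6 to 9 and 49 held 10 or more, and these 49 cells carried 58.5% of the interferon UMIs of the class. 24 cells passed on 1 gene alone, of which 16 passed on Iigp1, 4 on Cxcl9, 3 on Isg15 and 1 on Gbp2. 68 cells carried 4 or more of the 9 genes.

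The genes of the rule were high in these cells by construction, and their levels are given as a description. Iigp1, an immunity-related GTPase, was the most abundant or second most abundant in each library, at 1516, 2309, 1370 and 1247 CPM in the Osx-Cre, Prx1-Cre, control and CKO libraries. It was at 144, 143, 136 and 80.6 CPM in the other stromal cells. Cxcl9, a chemokine that draws CXCR3-bearing T cells, was at 2144, 982, 1013 and 756 CPM against 41.1, 38.0, 30.3 and 15.6. Isg15, a ubiquitin-like protein that is attached to other proteins in antiviral responses, was at 1405, 1277, 700 and 929 CPM against 156, 146, 67.8 and 69.0. Each of the 3 genes also had transcripts outside the selected cells, for Cxcl9 163 UMIs in 134 of the other 4800.

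Cxcl10, the second CXCR3 ligand, had the sharpest contrast, at 370, 1228, 560 and 372 CPM against 2.05, 3.80, 1.60 and 1.99. It had 215 UMIs in interferon-high cells and 13 in other stromal cells. The 215 came from 29 of the 203 cells, and 127 of them came from 3 cells. Cxcl9 was broader, with 410 UMIs in 92 cells and 64 in the richest 3. The chemokine and the antiviral genes were not seen in the same cells throughout: 37 cells had both a chemokine (Cxcl9 or Cxcl10) and an Ifit transcript, 61 had a chemokine without Ifit, 49 had Ifit without a chemokine and 56 had neither. At least 1 of the GTPases Gbp2, Igtp and Iigp1 was found in 183 of the 203. With so few UMIs per cell, a gene at 0 in a cell may have been missed.

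The guanylate-binding protein gene Gbp2 was at 407, 835, 324 and 504 CPM and the immunity-related GTPase gene Igtp at 296, 491, 188 and 106 CPM. Ifit1, whose product binds viral RNA, was at 813, 442, 247 and 318 CPM. Ifit3 was at 370, 295, 287 and 318 CPM, and its near-identical neighbour Ifit3b at 222, 344, 118 and 26.5 CPM, where reads shared by both copies leave the split uncertain. The 8-week values rest on few UMIs, such as 10 of Ifit3 in the Osx-Cre library, where the exact 95% Poisson interval ran from 177 to 680 CPM.

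**Figure D2:**
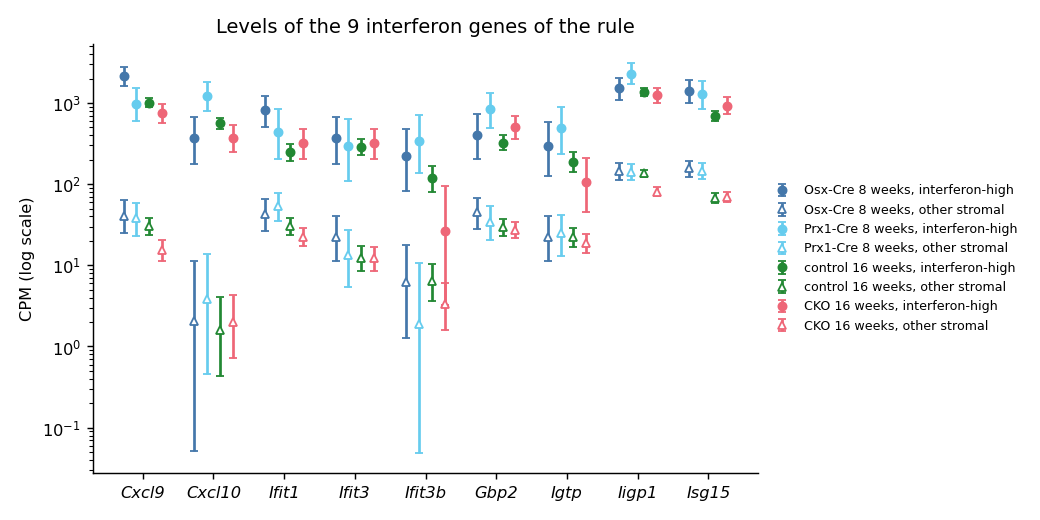
Level (CPM, log scale) of each of the 9 interferon genes of the rule in interferon-high cells (filled circles) and other stromal cells (open triangles) of each library, with exact 95% Poisson intervals. The cells were chosen on these genes, so the gap is fixed by the rule; Cxcl10 has the lowest level outside the chosen cells apart from Ifit3b in the Prx1-Cre library.

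Each gene was also read in cells chosen without it. When a gene was left out and cells were chosen with at least 4 UMIs of the other 8, Cxcl10 stood at 370, 1228, 541 and 372 CPM in the chosen cells and 2.05, 3.80, 5.17 and 1.99 CPM in the rest. Ifit3 stood at 347, 263, 269 and 304 CPM against 24.6, 15.2, 15.9 and 12.9. Isg15, the least separated in the Osx-Cre library, stood at 871 against 198 CPM there. With Cxcl10 left out, 24, 19, 121 and 36 cells were chosen in the Osx-Cre, Prx1-Cre, control and CKO libraries. The full rule chose 24, 19, 124 and 36. For Cxcl10 the choice was thus nearly that of the rule, and these levels are a description. Depth enters this choice too, and its part was not tested.

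Upstream sequence of these genes is shown because the stimulated genes of the pathway are read through 2 short elements, the interferon-stimulated response element (ISRE) and the gamma-activated sequence (GAS). Windows from 250 bases before to 50 after the transcription start were taken from RefSeq (GRCm38.p6, the mm10 build) and searched on both strands for the ISRE core GAAANNGAA and for GAS, TTCNNNGAA. A match was found for the ISRE core in 2812 of 32851 windows, 8.56%, and for GAS in 2726, 8.30%. 8 of the 9 interferon genes of the rule had a window, not Iigp1, and each of the 8 held the ISRE core, while 1 held GAS. Of the 39 genes called higher below, 26 had a window and 13 of them held the ISRE core and 6 GAS. Of the 13 called lower, 11 had a window, 2 with the ISRE core and 0 with GAS. A match of letters is a description and not a bound site. In the 7 windows below, each written 5′ to 3′ along the gene, capitals mark every ISRE core or GAS match. In Igtp and Tgtp2 the GAS match lies just before the ISRE core, and in Isg15 a run of 3 overlapping ISRE cores starts 78 bases before the start.
Cxcl9, chr5:92328030-92328329, minus strand: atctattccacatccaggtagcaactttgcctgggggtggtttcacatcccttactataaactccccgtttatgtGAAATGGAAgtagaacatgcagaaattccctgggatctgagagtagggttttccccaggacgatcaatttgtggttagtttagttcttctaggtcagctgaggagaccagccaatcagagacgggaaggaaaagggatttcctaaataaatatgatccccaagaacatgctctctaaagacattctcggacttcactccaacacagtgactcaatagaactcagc
Cxcl10, chr5:92348840-92349139, minus strand: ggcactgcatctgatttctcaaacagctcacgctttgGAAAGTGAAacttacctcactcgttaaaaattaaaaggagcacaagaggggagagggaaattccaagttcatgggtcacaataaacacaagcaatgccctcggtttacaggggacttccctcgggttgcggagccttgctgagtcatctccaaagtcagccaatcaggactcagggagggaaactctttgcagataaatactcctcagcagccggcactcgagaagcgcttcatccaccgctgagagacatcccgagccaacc
Isg15, chr4:156200769-156201068, minus strand: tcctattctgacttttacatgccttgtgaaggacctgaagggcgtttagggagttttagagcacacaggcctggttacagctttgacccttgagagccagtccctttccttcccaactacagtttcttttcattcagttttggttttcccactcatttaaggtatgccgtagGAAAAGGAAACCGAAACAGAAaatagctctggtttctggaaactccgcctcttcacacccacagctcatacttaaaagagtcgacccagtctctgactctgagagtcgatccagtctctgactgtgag
Ifit3, chr19:34583279-34583578, plus strand: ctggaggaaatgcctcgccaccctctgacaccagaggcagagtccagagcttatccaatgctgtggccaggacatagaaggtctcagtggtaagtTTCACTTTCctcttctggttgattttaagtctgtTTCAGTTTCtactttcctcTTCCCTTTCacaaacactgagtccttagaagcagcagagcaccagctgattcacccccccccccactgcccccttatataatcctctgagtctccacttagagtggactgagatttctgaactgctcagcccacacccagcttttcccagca
Gbp2, chr3:142620413-142620712, plus strand: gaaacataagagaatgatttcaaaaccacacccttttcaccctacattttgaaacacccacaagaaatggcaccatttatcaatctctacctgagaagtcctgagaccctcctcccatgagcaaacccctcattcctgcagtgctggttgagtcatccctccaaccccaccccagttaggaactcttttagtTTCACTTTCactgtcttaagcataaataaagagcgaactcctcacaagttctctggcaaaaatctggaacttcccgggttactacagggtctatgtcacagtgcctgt
Igtp, chr11:58199306-58199605, plus strand: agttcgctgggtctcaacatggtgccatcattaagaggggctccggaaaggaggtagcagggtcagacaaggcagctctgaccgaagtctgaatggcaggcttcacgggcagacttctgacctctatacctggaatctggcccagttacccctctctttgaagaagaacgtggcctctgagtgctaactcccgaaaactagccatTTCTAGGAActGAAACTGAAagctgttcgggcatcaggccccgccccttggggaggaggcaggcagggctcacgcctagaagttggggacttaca
Tgtp2, chr11:49064163-49064462, minus strand: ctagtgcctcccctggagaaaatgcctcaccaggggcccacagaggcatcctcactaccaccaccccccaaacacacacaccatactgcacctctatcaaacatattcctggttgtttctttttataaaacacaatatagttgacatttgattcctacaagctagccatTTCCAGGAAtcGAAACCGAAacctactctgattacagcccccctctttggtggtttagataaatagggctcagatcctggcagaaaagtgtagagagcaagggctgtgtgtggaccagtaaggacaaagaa

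Beyond the rule, most genes called higher in interferon-high cells belonged to the wider interferon programme. UMIs were summed per library and class and fitted in edgeR's quasi-likelihood test with the library as a block. The 16 genes of the rule were left out of the test. The low-count filter read the sums of both classes, so a gene scarce in the other stromal cells could enter through the interferon-high sums alone. Such a gene could hardly be called lower. Of 6240 genes tested, 39 (0.625%) were higher and 13 (0.208%) lower at a Benjamini-Hochberg adjusted p under 0.05. 29 of the 39, and none of the 13, were in this report's lists of interferon targets, MHC class I, receptors or nucleic acid sensors. These lists were drawn up with earlier results of these data known, so the count is a description. By list, 8.7% to 81.8% of the tested members were called higher, against 0.625% of all genes tested. The 4 libraries differ in Cre line, age and genotype and are not replicates of 1 condition, and the genes were read in the same cells that chose the classes, so a call says that a gene moved with the rule genes in these libraries. The median log2 fold change of all genes tested was -0.10, and changes should be read against it.

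The interferon-gamma GTPases, which coat and break pathogen vacuoles, had the highest share of calls among the interferon lists. Of 17 list members found, 11 could be tested, 9 (81.8%) were higher and 0 lower, with a median log2 fold change of 1.88. Some members were scarce in the other stromal cells, such as Gbp6 at 1.90 to 10.3 CPM. The share of calls, the absence of lower calls and the median are thus partly set by the low-count filter. Tgtp2 was at 554, 491, 221 and 173 CPM in the interferon-high cells of the Osx-Cre, Prx1-Cre, control and CKO libraries and at 88.3, 24.7, 40.7 and 17.9 CPM in the other stromal cells. It was higher in 4 of 4 libraries, with a log2 fold change of 2.69 ± 0.26 (SE; edgeR adjusted p = 3.14e-22), and 98 UMIs lay in 63 of the 203 cells. Tgtp1, a near-identical copy whose reads may be split with it, rose by 2.14 ± 0.51 (adjusted p = 0.00614) and lost its call under 6 of 14 alternatives, among them cells of 1000 to 4000 UMIs. Ifi47, another immunity-related GTPase, rose by 1.57 ± 0.25, and the guanylate-binding protein genes Gbp3 and Gbp7 by 2.04 ± 0.42 and 1.88 ± 0.39. Gm4951, the most abundant gene of the list, rose by 0.97 ± 0.20, and counted once per cell it was 0.38 with an adjusted p of 0.219. Irgm1, Gbp5 and Gbp6 also passed but were not higher in every library. Irgm2 had a log2 fold change of 1.35 with an adjusted p of 0.292.

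Antiviral effectors, most of them type I interferon targets, were the longest list. Of 50 found, 36 were tested and 13 (36.1%) were higher and 0 lower, with a median of 1.16. Here too some members were scarce in the other stromal cells, such as Cmpk2 at 1.20 to 8.21 CPM. The absence of lower calls and the median are thus partly set by the low-count filter. Rtp4 and Ly6e, both classical type I targets, rose in 4 of 4 libraries by 1.33 ± 0.22 (adjusted p = 7.53e-07) and 1.31 ± 0.21 (adjusted p = 3.08e-07). Rtp4 lost its call without the library block (adjusted p = 0.0542) and in cells thinned to 800 UMIs (0.227). Ly6e was at 591, 884, 343 and 398 CPM against 209, 192, 155 and 144, so each interferon-high value lay above each other-stromal value. Usp18, a protease that removes ISG15 and dampens the type I receptor, rose by 2.42 ± 0.39. In cells of 1000 to 4000 UMIs it was 1.80 with an adjusted p of 0.111, and without the control library its adjusted p was 0.156. Oasl2, of the oligoadenylate synthetase family, rose by 1.83 ± 0.29, and Ifi204, a DNA sensor of the HIN-200 family, by 1.44 ± 0.30. Ifi211, a relative of Ifi204, rose by 1.08 ± 0.25. Bst2, which tethers budding virus, was higher in 4 of 4 libraries but had an adjusted p of 0.0601.

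Among the genes called higher, the largest fitted change rested on few cells. Rsad2, which encodes viperin, rose by 4.51 ± 0.70 (adjusted p = 1.46e-07) on 27 UMIs in 7 cells, 23 of them in 3 cells, and was at 0 in the interferon-high cells of the Osx-Cre library. In the other stromal cells it was at 2.05, 1.90, 3.99 and 0 CPM, so it entered the test through the interferon-high sums. The p-value and rank of Rsad2 are thus partly set by the low-count filter. Its neighbour on chromosome 12, Cmpk2, rose by 3.34 ± 0.84 on 12 UMIs in 7 cells. Counting each gene at most once per cell, Rsad2 had a log2 fold change of 2.88 with an adjusted p of 0.367 and Cmpk2 2.73 with 0.311.

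Irf7 rose, and the receptor genes of the pathway were not called. Irf7 encodes a transcription factor that amplifies type I interferon responses, and was at 518, 393, 147 and 239 CPM against 69.8, 72.3, 50.7 and 33.2 CPM. It rose by 2.07 ± 0.26 (adjusted p = 2.23e-12), with transcripts in 56 of 203 interferon-high cells and 264 of 4800 others. Of 23 tested members of the receptor and JAK-STAT list 2 were higher and 0 lower, with a median of 0.08. The receptor genes Ifnar1, Ifnar2, Ifngr1 and Ifngr2 had log2 fold changes of -0.45, -0.04, -0.02 and 0.10, each with an SE of 0.22 to 0.50 and none called. Ifngr1 was present at 296, 639, 420 and 411 CPM in the interferon-high cells. None of the 15 interferon genes reached the test: their only UMI in stromal cells was 1 of Ifnz, in an interferon-high cell of the control. Among nucleic acid sensors 1 of 10 tested was higher, Zbp1, at 1.62 ± 0.41 (adjusted p = 0.0121). It had 2, 0, 14 and 13 UMIs in the interferon-high cells of the 4 libraries, was higher in 3 of them, and lost its call counted once per cell (adjusted p = 0.0515), in cells of 1000 to 4000 UMIs (0.220) and without the library block (0.331). The RNA sensor genes Ddx58 and Ifih1 had log2 fold changes of 1.12 and 0.93 with adjusted p of 0.686 and 0.997.

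Of 24 tested members of the MHC class I list, which serve antigen presentation, 3 were higher, with a median of 0.34. These were Tap1, the peptide transporter, at 1.44 ± 0.28 (adjusted p = 9.76e-05), and the immunoproteasome subunits Psmb9 and Psmb8 at 0.86 ± 0.24 and 0.81 ± 0.20. Counted once per cell Psmb8 was 0.37 with an adjusted p of 0.292, and in cells of 1000 to 4000 UMIs Psmb9 was 0.80 with an adjusted p of 0.138. Tap1 was at 296, 295, 147 and 66.4 CPM against 57.5, 55.2, 55.8 and 39.8, and without the control library its adjusted p was 0.156. The partner transporter gene Tap2 and the proteasome genes Psmb10 and Psme1 had log2 fold changes of 0.72, 0.61 and 0.71 with adjusted p of 0.342, 0.455 and 0.236. The abundant light chain and heavy chain genes B2m and H2-K1 had log2 fold changes of -0.11 ± 0.17 and 0.03 ± 0.18. No MHC class II gene could be tested, and the 9 genes summed to 8, 0, 23 and 1 UMIs in the interferon-high cells. Other interferon-gamma targets called were Il18bp, which binds interleukin 18, at 1.45 ± 0.36, and the protease inhibitor gene Serpina3f at 1.30 ± 0.22, 2 of 11 tested with a median of 0.59. Il18bp lost its call under 4 of 14 alternatives, among them the fit without the library block (adjusted p = 0.197). Fam26f, a membrane channel gene outside the lists, rose by 2.67 ± 0.56, although 3 cells held 12 of its 21 UMIs.

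**Figure D3:**
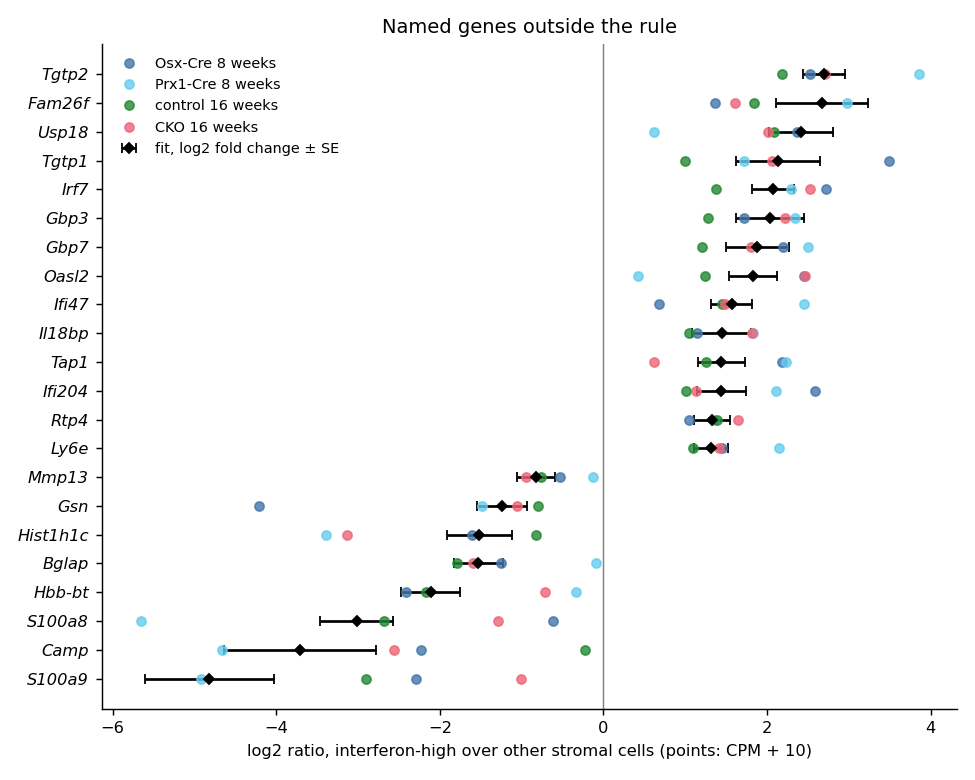
Log2 ratio of interferon-high over other stromal cells for 14 of the 15 named genes called higher and the 8 called lower. Coloured points are the single libraries (CPM + 10 in each class) and black diamonds the edgeR fit ± SE. The genes were chosen for 1 sign in 4 libraries, which 26 of the 39 higher and 8 of the 13 lower genes had, with S100a8, Camp and S100a9 spread most widely.

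Among chemokines and cytokines outside the rule 2 of 13 tested were higher, Ccl2 and Ccl19, with a list median of -0.10. Ccl2, which recruits monocytes, was at 259, 5059, 2406 and 226 CPM against 140, 472, 345 and 234, thus far higher in the Prx1-Cre and control libraries and about level in the CKO. Its fitted change was 2.02 ± 0.21, but 478 of 780 UMIs came from 3 cells, and counted once per cell it was 0.10 with an adjusted p of 0.972. Ccl19, a CCR7 ligand with near-identical copies in the genome, rose by 1.29 ± 0.21 and was higher in 4 of 4 libraries. It was 0.41 with an adjusted p of 0.407 when counted once per cell. Of the 175 Ccl5 UMIs in interferon-high cells, 173 sat in 1 control cell. That cell had 4784 UMIs and 165 of the rule, among them 67 of Cxcl10 and 43 of Isg15, with 146 of Ccl2 and 13 of Rsad2, 81 of Cxcl12, and 0 of Ptprc, Cd74 and Lyz2. Without it 37 of the 39 higher genes were still called.

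Counted once per cell, 24 of the 39 higher genes kept their call and no other gene was called higher, while 63 genes were called lower, 1 of them among the 13. The 24 genes still called higher included 14 of the 15 named higher genes, Fam26f being the exception at an adjusted p of 0.143.

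The summed levels of the antiviral effectors and GTPases climbed with the number of rule UMIs in a cell. Over the 4 libraries the antiviral effectors stood at 5648 CPM in stromal cells with 0 of these UMIs, 6063 with 1, 6842 with 2 or 3, 8109 with 4 or 5, 8666 with 6 to 9 and 13413 CPM with 10 or more. The GTPases stood at 548, 616, 865, 1075, 1588 and 3232 CPM over the same steps and MHC class I at 21066, 21689, 22952, 23441, 23841 and 27727 CPM. MHC class I was not higher in the Prx1-Cre library, at 22006 CPM (20015 to 24141) in interferon-high and 22129 CPM (21729 to 22535) in other stromal cells. Ifitm3, which was not called (log2 fold change 0.26, adjusted p = 0.997), made up much of the antiviral sum, with 5434, 6140, 5003 and 4684 of 11533, 12771, 9232 and 9409 CPM in the interferon-high cells of the 4 libraries and 4216, 4158, 3419 and 3540 of 7226, 6878, 5746 and 5645 CPM in the others. The marrow niche genes stood at 21189 CPM in cells with 0 and 17333 CPM in those with 10 or more. These sums pool libraries in unequal shares. Within the Osx-Cre, Prx1-Cre, control and CKO libraries the antiviral effectors stood at 6992, 6605, 5373 and 5462 CPM in cells with 0 and at 8524, 7762, 6597 and 6735 CPM in cells with 2 or 3, and the GTPases at 504, 572, 630 and 493 against 888, 1011, 999.7 and 660 CPM. Both lists were thus higher at 2 or 3 UMIs, below the threshold, than at 0 in each library, with intervals that did not overlap. Median depth rose over the first steps, from 1024 UMIs at 0 to 1922 at 6 to 9, and was 1774 at 10 or more.

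**Figure D4:**
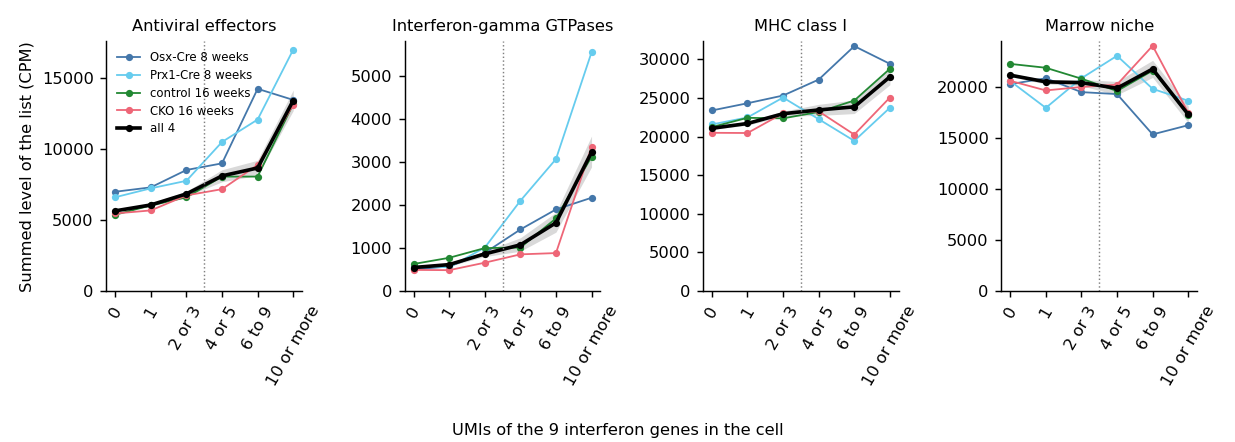
Summed level (CPM) of 4 gene lists, none of which holds a gene of the rule, in stromal cells grouped by their UMIs of the 9 interferon genes (x axis). Coloured lines are libraries and the black line all 4 with its exact 95% Poisson interval; the dotted line marks the threshold of 4. Antiviral effectors reach 13413 CPM and GTPases 3232 CPM in cells with 10 or more.

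No marrow niche gene was called. Of 24 tested, 23 had a log2 fold change below 0, with a median of -0.29, and Kitl, the stem cell factor gene, had a log2 fold change of -0.37 ± 0.20 (adjusted p = 0.997). Igfbp4, Igfbp5, Gas6 and Vcam1, the most abundant, ranged from -0.35 to -0.12 and none was called. Of 12 adipogenic genes 0 were called, with a median of -0.20. Of 14 cell death and p53 targets 0 were called, with a median of 0.05, and Cdkn1a, the p21 gene, had -1.26 ± 0.45 (adjusted p = 0.374). 1 of 15 NF-kB targets was called, Ccl2. 1 of 4 tested periosteal markers was called higher, Ly6a, on 18 UMIs of which 10 were in 1 cell. Ly6a had 0 UMIs in the interferon-high cells of both 8-week libraries and was thus higher in 2 libraries and lower in 2. In DESeq2 its adjusted p was 0.9997. 0 of 5 chondrocyte, 0 of 3 pericyte and 0 of 1 endothelial markers were called.

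The lower genes were blood cell, osteoblast and a few other transcripts, and 6 of the 13 had over 50% of their UMIs among other stromal cells in 3 cells. Among the 13 were the 4 hemoglobin genes tested, the neutrophil genes S100a8, S100a9 and Camp, the osteocalcin genes Bglap and Bglap2 with Mmp13, a collagenase of late osteoblasts, and Gsn, Hist1h1c and Fosb. Of 14 osteogenic genes tested 3 were lower and 0 higher, with a median of -0.36. The abundant Ibsp and Spp1 had log2 fold changes of -0.48 and -0.32 and were not called (adjusted p of 0.408 and 0.997). Mmp13 lost its call under 11 of 14 alternatives. Hbb-bs had 4274 UMIs in other stromal cells, of which 2418 lay in 3 cells and 2121 in 1 control cell. Its transcripts were seen in 12.5%, 5.26%, 32.3% and 16.7% of interferon-high cells and in 8.24%, 12.5%, 28.7% and 11.1% of other stromal cells of the Osx-Cre, Prx1-Cre, control and CKO libraries. That share was lower in interferon-high cells in the Prx1-Cre library and higher in the other 3, in cells that were also deeper. S100a8 fell by 3.02 on the log2 scale (SE 0.44, adjusted p = 1.30e-08), with 7 UMIs in 7 interferon-high cells and 870 in 77 others, 619 of them in 3 cells. Counted once per cell its log2 fold change had the opposite sign, 0.56, with an adjusted p of 0.944. S100a9 and Camp each had 1 UMI in the interferon-high cells, and the pooled level in the other cells was 26.9 times (4.80 to 1065) and 18.6 times (3.32 to 739) that value, counting error alone.

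The summed erythroid list was at 591, 491, 604 and 279 CPM in interferon-high cells and 444, 626, 3435 and 627 CPM in the others, with 5, 4, 2 and 4 of its 8 genes at 0 in the interferon-high cells. The myeloid list was at 259, 246, 184 and 119 CPM against 363, 1025, 390 and 298. These cell types' transcripts moved with the lower calls, and their part beyond the cells named was not tested. Bglap, which encodes osteocalcin, was at 407, 442, 33.2 and 13.3 CPM against 979, 472, 139 and 60.3, lower in 4 of 4 libraries by 1.53 ± 0.30 (adjusted p = 8.13e-05). Counted once per cell its log2 fold change was -0.43 with an adjusted p of 0.824. Its call was lost under 5 of 14 alternatives, among them DESeq2 and leaving out the control library. Hist1h1c, a linker histone gene, was lower in 4 of 4 libraries and was the 1 gene of the 13 still called when counted once per cell, at -1.40 with an adjusted p of 0.0212. It rested on 1, 0, 13 and 0 UMIs in the interferon-high cells and lost its call under 7 of 14 alternatives. DESeq2 on the same sums called 0 lower genes at an adjusted p under 0.05, with 54 at an unadjusted p under 0.05, and 28 higher.

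**Figure D5:**
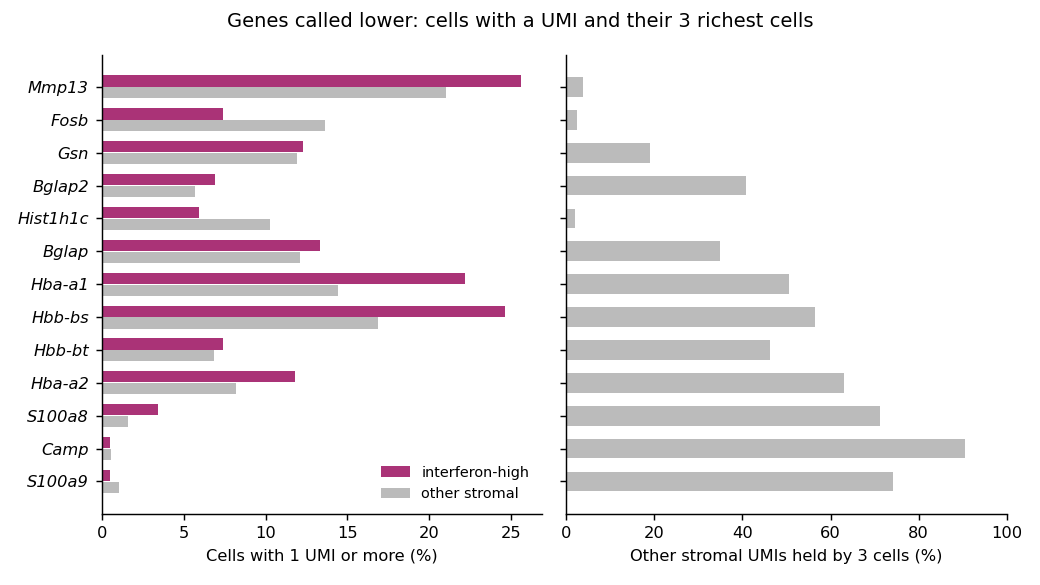
Left, share of interferon-high and other stromal cells (%) with at least 1 UMI of each of the 13 genes called lower, over the 4 libraries; right, share (%) of their UMIs in other stromal cells that 3 cells hold. 6 of the 13 have over 50% of those UMIs in 3 cells; the shares of cells pool libraries of unequal make-up, with 124 of 203 interferon-high but 1629 of 4800 other cells from the control.

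Between the 16-week libraries, whose direction rests on the labels, the cells were fewer in the CKO, and the summed level of the rule genes within them had overlapping intervals. The 9 genes of the rule summed to 4807 CPM (4550 to 5075) in the control cells and 4578 CPM (4108 to 5088) in the CKO cells, a value that the threshold holds near a floor. In the other stromal cells they summed to 336 CPM (314 to 360) and 252 CPM (234 to 270). Within the class Cxcl9 was at 1013 CPM (897 to 1140) in the control and 756 CPM (573 to 980) in the CKO, and Gbp2 at 324 CPM (260 to 399) and 504 CPM (357 to 692). Genes with at least 20 UMIs in both sums together were compared by the log2 ratio of CPM + 10, CKO over control, with no test. Of 2680 such genes, 75 (2.8%) were 2-fold or more higher and 202 (7.54%) 2-fold or more lower in the CKO. 12 and 5 of the same genes passed that fold in the other stromal cells, whose sums are far larger.

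Of 31 genes called higher above that could be compared, 2 were 2-fold higher, Zbp1 and Ifi203, and 5 were 2-fold lower, Ccl2, Irgm1, Rsad2, Tap1 and Gm2564, with a median ratio of -0.11. Tgtp2 had a ratio of -0.34, Ly6e 0.21 and Irf7 0.66. Irf7 was at 239 CPM (142 to 378) in the CKO and 147 CPM (105 to 201) in the control, so these intervals overlapped. The gene with the highest ratio was Fos, at 2.56, with 87 UMIs in the CKO and 51 in the control. The immediate early and stress list was at 3024 CPM in control and 7033 CPM in CKO interferon-high cells, and 3541 and 7637 CPM in the other stromal cells, a gap in the same direction in both classes.

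Between the 8-week libraries 333 genes could be compared. 12 (3.6%) were 2-fold or more higher and 17 (5.11%) lower in the 19 Prx1-Cre cells than in the 24 Osx-Cre cells. Cxcl9 stood at 982 CPM (600 to 1517) in the Prx1-Cre cells and 2144 CPM (1628 to 2772) in the Osx-Cre cells, and Cxcl10 at 1228 CPM (795 to 1813) and 370 CPM (177 to 680). The 10 Cxcl10 UMIs of the Osx-Cre library lay in 2 cells and the 25 of the Prx1-Cre library in 6.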

How the data were processed

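Counts: the authors aligned droplet 3′-end libraries to mm10 with Cell Ranger (3.1.0 in the file headers) and deposited UMI counts per gene and barcode, not normalized. Depth was 1040275, 1554098, 3609446 and 3503024 UMIs over 782, 993, 2068 and 2362 filtered cells of the Osx-Cre, Prx1-Cre, control and CKO libraries. Cells needed 200 genes. No doublet caller was run. 21 barcodes occurred in more than 1 library. The bulk RNA-seq and ATAC-seq files were not used here. The members and gene lists were chosen with earlier results of these data known.

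UMIs were summed per library and class and tested in edgeR 4.0.16 (TMM, filterByExpr, quasi-likelihood, library block, Benjamini-Hochberg). DESeq2 1.42.0 was an alternative. Shares carry exact Clopper-Pearson and levels exact Poisson 95% intervals, which cover counting error alone. Named genes were up to 15 per direction with the largest fitted change, 20 UMIs in the higher class and 1 sign in 4 libraries; genes outside that rule were named after their values were seen. List examples were the most abundant called members. On simulated sums of this comparison (6246 genes) the test recovered 96% of 50 genes raised 4-fold and 6% of 50 raised 2-fold, and called 5 of 6046 unchanged genes. The changed genes were drawn from abundant ones, and all libraries shared a single mean profile and a fixed spread, without UMIs piled in single cells. The recovery thus does not cover scarce genes such as Rsad2, and the false calls do not cover genes held by few cells such as Ccl2. No label says that cells came from separate animals. With the library as a block, p-values measure how far the difference between classes varied from library to library. They do not measure the spread between mice. The values of 1 gene called higher are not reported here.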

Additional observations from a re-analysis of the deposited data

How the results depend on the processing

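Of the 39 higher and 13 lower genes, the counts by setting were as follows. DESeq2 called 28 and 0, library totals without TMM 56 and 13, no filter on low counts 36 and 15, a threshold of 6 UMIs 38 and 7, cells of 1000 to 4000 UMIs 26 and 8, cells without UMIs of other cell types 31 and 5, and thinning to 800 UMIs 12 and 1. Without the replicate block, that is without the library term, 20 and 0 were called. Leaving out 1 library gave 16 to 43 higher genes and 3 to 14 lower, the least without the control library (16 and 3), then without the CKO library (23 and 7) and without the Osx-Cre library (35 and 8). Of the settings added after the data were seen, counting each gene once per cell gave 24 and 63, and S100a8 turned to 0.56. Without the control cell richest in interferon UMIs 37 and 13 were called. 4 named genes, Tgtp2, Irf7, Ifi47 and Ly6e, kept their call under every setting. The shares for the Osx-Cre, Prx1-Cre, control and CKO libraries were 8.24%, 6.14%, 9.81% and 3.63% with a threshold of 3 UMIs, 2.33%, 1.75%, 3.65% and 1.04% with 6, and, added later, 1.25%, 0.877%, 1.54% and 0.471% with 10 and 8.16%, 5.61%, 8.46% and 2.38% in cells of 1000 to 4000 UMIs. Thinning gave 4.72%, 3.39%, 2.87% and 0.763%, and leaving out Isg15 2.87%, 2.98%, 5.31% and 1.08%. The cause of these shifts was not tested. No sample pairing enters, since each group is 1 library. The 8-week interferon-high sums of 27052 and 20358 UMIs limit those libraries, where 3 UMIs are 110.9 and 147.4 CPM.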
